A study of Cricetiscus sungorus with 16 samples.

Results

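The antioxidant and glutathione enzymes described here are 10 genes chosen by transcript identifier: the glutathione transferases Gsta3 (NM_010356), Gsta4 (NM_010357), Gstm1 (NM_010358) and Gstp1 (NM_013541), the peroxide-removing enzymes Gpx1 (NM_008160), Gpx3 (NM_008161), Cat (NM_009804) and Prdx1 (NM_011034), and the superoxide dismutases Sod1 (NM_011434) and Sod2 (NM_013671). All 10 were on the array, among 33272 identifiers, and were read by 13 probes. In all, 9 of the 10 passed the filter on dim probes and were tested among 20143 identifiers, and Sod2 did not pass. The symbols come from the list that named the identifiers, since the array files carry no symbols.

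The RNA came from ovaries of female Siberian hamsters, which breed seasonally and mature later in short days. The 4 groups were hamsters gestated and reared in short days (SD, 10 h of light per day) and examined at 8 wk of age, hamsters kept likewise in long days (LD, with 16 h) and examined at 8 wk, SD hamsters at 3 wk and LD hamsters at 3 wk. Each group held 4 hamsters, with the RNA of both ovaries of 1 animal on each array. The series asks how day length and age change the ovary, and the differences between photoperiods at each age and between ages in each photoperiod are its comparisons. For the SD group at 8 wk the labels conflict, giving 16 h of light in some fields and 10 h in others. It was taken as SD with 10 h.

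Superoxide, formed by mitochondria and by steroid-making enzymes, is turned into hydrogen peroxide by superoxide dismutases, and the peroxide is then removed by catalase, glutathione peroxidases and peroxiredoxins. Glutathione transferases join the tripeptide glutathione to reactive electrophiles, among them aldehydes from oxidised lipids. In the ovary these enzymes are known from granulosa, theca and luteal cells, where steroid synthesis produces oxidants as a by-product.

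The probes were designed for mouse transcripts, so the values are signals of hamster RNA on mouse sequences, and which hamster transcript bound to a probe was not tested. A level is the log2 intensity minus that of the 75th percentile on the same array, and a probe is compared between groups, never with another probe. Every group had 1 array on each of 4 slides, always at the same position, so a group and its position cannot be told apart. Arrays of slide 1 stood apart. They held the lowest 75th percentiles within a range of 269 to 1007 intensity units over all 16 arrays, and they had 1.79% to 2.95% of spots marked as outliers, against at most 0.477% on the other slides. Results are therefore given with slide as a block and without slide 1 where these change the call. Hamsters of a group are numbered here by their slide. Because the files pair no identifier with a symbol, markers of granulosa, theca, luteal, oocyte, blood and other cells and further genes of the glutathione and thioredoxin pathways could not be matched. In whole ovaries, a different share of cells of a type and a different amount of RNA per cell cannot be told apart.

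SD ovaries at 8 wk had the highest mean in 8 of the 9 tested genes, and the exception was Gsta3, which was lowest there. The share of all identifiers with their highest mean in that group was not computed, so the count has no baseline. The lead over LD at 8 wk was small in some, at 0.04 for Gpx3, 0.07 for Gpx1 and 0.14 for Gstp1. Between photoperiods at 8 wk, Cat rose in SD ovaries and was the single gene of the 9 called at a limma adjusted p under 0.05, against 0.958% of all identifiers called. With slide as a block the call was again Cat alone, against 2.62% of identifiers. The median log2 difference, SD minus LD, was 0.20 over the 9 genes and −0.01 over all identifiers. The difference was positive in 8 of 9 genes, against 48.0% of all identifiers. In 1, 3 and 5 of 31 alternative settings it changed sign for Gstp1, Gpx1 and Gpx3. For 5 of the 9, the 95% interval lay within a 2-fold change either way.

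At 3 wk the photoperiods differed in none of the 9 genes by limma, and none had an unadjusted p under 0.05. Over all identifiers 0% were called, with 330 below an unadjusted p of 0.05, and 0% were called with slide as a block, with 1298 below it. The 9 log2 differences ran from −0.27 for Gpx3 to 0.30 for Cat, and every 95% interval lay within a 2-fold change. The median was 0.03, against −0.05 over all identifiers.

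With age, more of these genes were called in SD than in LD ovaries, and so were more of all identifiers. Between 3 and 8 wk, Cat and Gpx3 rose and Gsta3 fell in SD ovaries, 3 of 9 genes called by limma against 9.15% of all identifiers. With slide as a block 7 of 9 were called, against 23.1% of identifiers: Gsta4, Gstm1, Gstp1 and Gpx1 also rose. The median log2 difference, 8 wk minus 3 wk, was 0.63 over the 9 genes and 0.00 over all identifiers. In LD ovaries Gpx3 alone rose, 1 of 9 genes against 2.98% of identifiers, and with slide as a block Gsta4 and Gstp1 joined it, 3 of 9 against 11.9%. The LD median was 0.31, against −0.04 over all identifiers. Without slide 1 the age changes called were 8 of 9 in SD ovaries, all but Prdx1, against 14.2% of identifiers. In LD ovaries they were 3 of 9, against 6.19%: Gstp1 and Gpx1 rose, Gsta3 fell and Gpx3 was no longer called. The comparison of photoperiods at 8 wk and the SD age change share the 4 SD arrays at 8 wk.

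A call in SD and not in LD does not show that the age changes differ. The difference of the age changes, SD minus LD, was called by limma in 0 of the 9 genes, against 0.0596% of identifiers, and in 0 of 9 with slide as a block, against 0.174%. At an unadjusted p under 0.05 there were 2 of the 9 genes (Cat and Gstm1), against 614 of the 20143 identifiers. With slide as a block there were 3, Gsta3 being the further one, against 1713 identifiers.

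**Figure D1:**
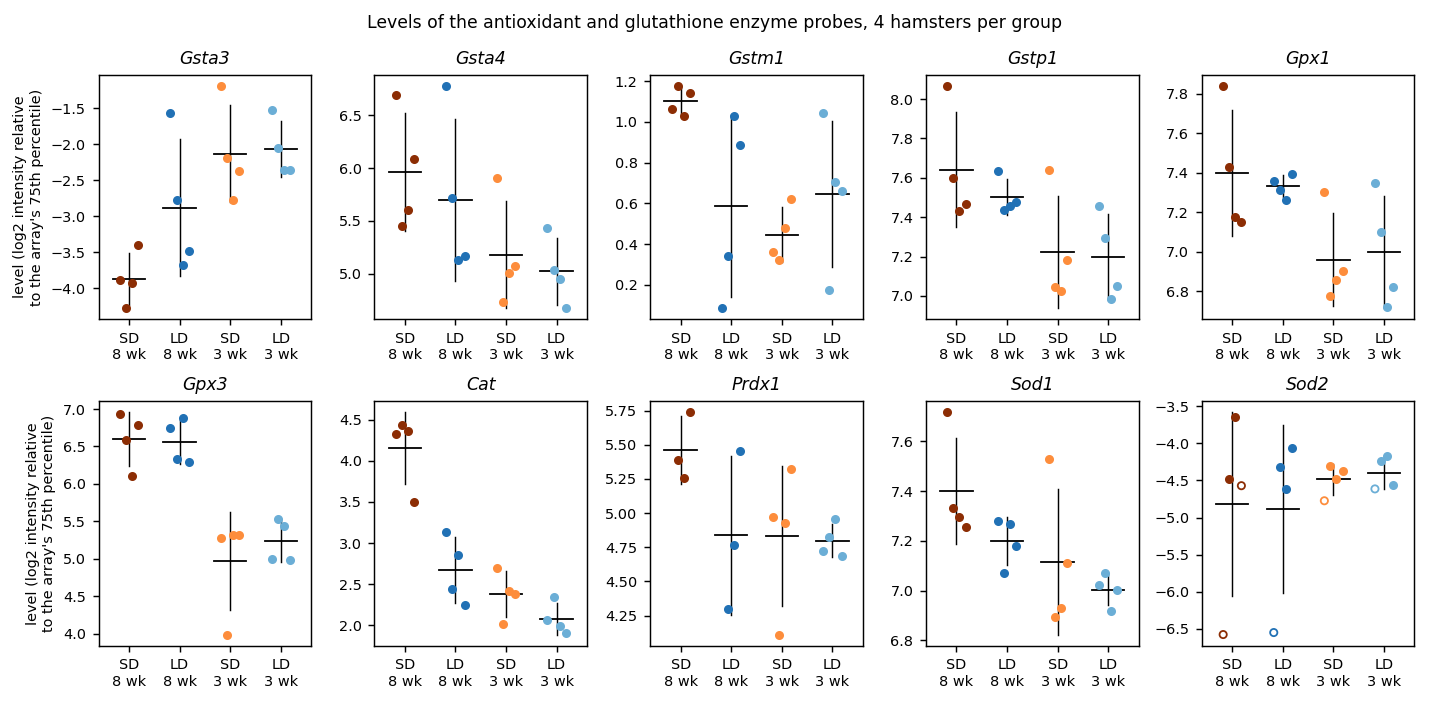
Levels of the 10 genes on each array, as log2 intensity over the array's 75th percentile, in SD and LD ovaries at 8 wk and then at 3 wk. Each point is 1 hamster, the horizontal line is the group mean and the vertical line is 1 standard deviation. Hollow points were not well above background, and each panel has its own axis. The SD points at 8 wk lie above all others for Cat and below all 3-wk points for Gsta3, and both 8-wk groups lie above both 3-wk groups for Gpx3.

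Cat encodes catalase, the peroxisomal enzyme that splits hydrogen peroxide into water and oxygen without glutathione. Its levels were 4.32, 4.44, 4.37 and 3.51 in SD ovaries at 8 wk, against 3.14, 2.44, 2.85 and 2.24 in LD ovaries at 8 wk. At 3 wk they were 2.70, 2.02, 2.41 and 2.38 in SD ovaries, against 2.06, 2.35, 1.99 and 1.91 in LD ovaries. Every SD ovary at 8 wk was brighter than every other ovary, and the hamster on slide 4 was the lowest of that group. The other 3 groups lay close together, with LD at 8 wk overlapping both 3-wk groups.

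For Cat the SD mean at 8 wk was 4.16 ± 0.44 and the LD mean was 2.67 ± 0.40 (standard deviation, n = 4 each). The log2 difference was 1.49 (SE 0.23, 95% interval 1.0 to 1.98), a 2.81-fold higher signal in SD ovaries, with a limma adjusted p of 0.00334, and 0.00108 with slide as a block. Within the slides it ran from 1.18 to 1.99 and was positive on 4 of 4. By size it ranked 144 of 20143 identifiers. The call was lost when the 8 arrays of these groups were fitted alone, at the same difference and a limma adjusted p of 0.0553, and it was kept in the other 30 settings tried, with adjusted p up to 0.0195.

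The age change of Cat was 1.78 in SD ovaries (SE 0.23, limma adjusted p = 0.000188), a 3.43-fold higher signal at 8 wk than at 3 wk. In LD ovaries it was 0.59 (SE 0.23, limma adjusted p = 0.235, and 0.0566 with slide as a block). The LD rise was positive on 4 of 4 slides. It was called in 1 of the 31 alternative settings, at a limma adjusted p of 0.0409. The difference of these age changes was 1.19 (SE 0.33), with an unadjusted limma p of 0.00224 that did not pass adjustment (0.528, and 0.123 with slide as a block). Within slides it was positive on 4 of 4, from 0.55 to 2.32. Among all identifiers 85 ranked at or before Cat by this p, and those past adjustment numbered 12.

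Gpx3 encodes the glutathione peroxidase that is secreted and circulates in plasma. Its levels were 6.93, 6.58, 6.11 and 6.78 in SD ovaries at 8 wk, against 5.27, 3.99, 5.31 and 5.32 in SD ovaries at 3 wk. In LD ovaries they were 6.75, 6.34, 6.88 and 6.29 at 8 wk, against 5.0, 5.54, 5.44 and 4.99 at 3 wk. All 8 ovaries of 8 wk were brighter than all 8 of 3 wk, in both photoperiods, and the SD hamster of slide 2 was well below the other SD hamsters at 3 wk.

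The rise of Gpx3 with age was 1.63 on the log2 scale in SD ovaries (SE 0.28, limma adjusted p = 0.00171), a 3.10-fold difference. In LD ovaries it was 1.32 (SE 0.28, limma adjusted p = 0.0178), a 2.5-fold difference. The LD call ended without slide 1, where the rise was 1.18 (limma adjusted p = 0.0563). It also ended without the LD hamster of slide 3 at 8 wk (0.0595), or the LD hamsters of slide 1 (0.0510) or slide 4 (0.0689) at 3 wk. The age changes differed by 0.31 (SE 0.40, 95% interval −0.54 to 1.15), so the interval holds both no difference and a 2-fold one. Between photoperiods at 8 wk the difference was 0.04 (95% interval −0.56 to 0.64).

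**Figure D2:**
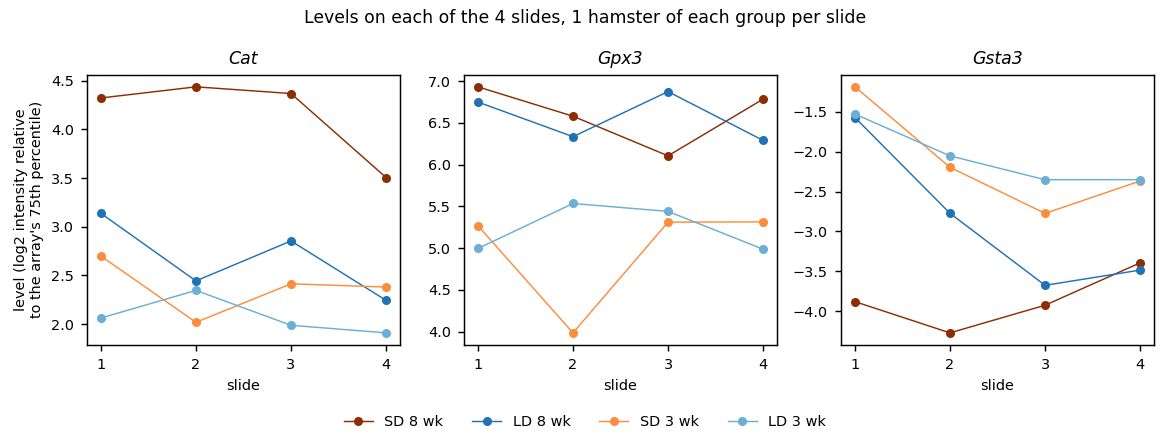
Levels of Cat, Gpx3 and Gsta3 on each slide, as log2 intensity over the array's 75th percentile, with 1 line per group and 1 hamster of each group on a slide. Cat in SD at 8 wk lies above the other 3 groups on all 4 slides, Gpx3 separates by age on each slide, and the Gsta3 line of LD at 8 wk runs with the 3-wk lines on slide 1 and near the SD line at 8 wk on slides 3 and 4.

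Gpx1 encodes the main glutathione peroxidase inside cells. Its levels were 7.84, 7.43, 7.18 and 7.15 in SD ovaries at 8 wk, against 7.30, 6.78, 6.86 and 6.90 in SD ovaries at 3 wk. LD ovaries had 7.36, 7.32, 7.26 and 7.39 at 8 wk, against 7.35, 7.10, 6.72 and 6.83 at 3 wk. The ages overlapped in both photoperiods, with the slide 1 hamsters high among the 3-wk ovaries, while on every slide the 8-wk ovary was the brighter one of its photoperiod. The age change in SD ovaries was 0.44 (SE 0.18), with a limma adjusted p of 0.179 and, with slide as a block, 0.0101. In LD ovaries it was 0.33 (SE 0.18), with adjusted p values of 0.493 and 0.0605. Without slide 1 the rise was called in both photoperiods, in LD at a limma adjusted p of 0.0352.

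Prdx1 encodes a peroxiredoxin that reduces peroxides with electrons from thioredoxin. Its spot was marked as an outlier on slide 1 in both 8-wk groups, so those groups had n = 3 in the fit. Its levels ran from 5.25 to 5.74 in SD ovaries at 8 wk and from 4.29 to 5.45 in LD ovaries at 8 wk. At 3 wk they ran from 4.11 to 5.32 in SD ovaries and from 4.68 to 4.95 in LD ovaries. The SD ovaries at 8 wk overlapped LD at 8 wk and SD at 3 wk, each through its brightest array. The log2 difference between photoperiods at 8 wk was 0.62 (SE 0.31, limma adjusted p = 0.795), and the age change was 0.63 in SD ovaries (SE 0.29, adjusted p = 0.233) and 0.04 in LD ovaries (SE 0.29). None of these passed the test, also with slide as a block, where the SD age change had an adjusted p of 0.0672. In 1 of the 31 alternative settings the SD age change was called (limma adjusted p = 0.0490).

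Among the transferases, Gsta3 went the other way. It encodes an alpha-class glutathione transferase, and the human enzyme also isomerises a ketosteroid on the way to progesterone. The brighter of its probes (A_51_P503625) had −3.88, −4.27, −3.93 and −3.40 in SD ovaries at 8 wk, against −1.19, −2.20, −2.77 and −2.37 in SD ovaries at 3 wk. In LD ovaries it had −1.57, −2.77, −3.68 and −3.49 at 8 wk, against −1.53, −2.05, −2.35 and −2.35 at 3 wk. The SD ovaries at 8 wk were all dimmer than the SD ovaries at 3 wk. The LD ovaries at 8 wk spread widely, with slide 1 as bright as the 3-wk ovaries and slides 3 and 4 among the SD ovaries at 8 wk.

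The fall of Gsta3 with age in SD ovaries was −1.74 on the log2 scale (SE 0.41, limma adjusted p = 0.0131), a 3.34-fold lower signal at 8 wk. With slide as a block the adjusted p was 0.00124, and within slides the difference ran from −2.70 to −1.03. The probe is dim, with intensities of 24.7 to 195 over all arrays, and with another background correction (normexp) the difference was −0.91 and not called (limma adjusted p = 0.138). In LD ovaries the age change was −0.81 (SE 0.41, adjusted p = 0.434), and it was −1.06 without slide 1, where it was called (limma adjusted p = 0.0414). The photoperiod difference at 8 wk was −0.99 (SE 0.41, limma adjusted p = 0.557). It was −2.31 and −1.50 on slides 1 and 2, and −0.25 and 0.09 on slides 3 and 4. The dimmer probe of Gsta3 (A_52_P432124) was not well above background except on 2 arrays of LD ovaries at 3 wk, and it was not tested.

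Gsta4 encodes the alpha-class transferase that clears hydroxynonenal, an aldehyde formed from oxidised lipids. It was read by 10 spots of the same probe, of which 4 to 10 were used on an array, with a standard deviation between spots of 0.03 to 0.15 on the log2 scale. Its levels were 6.69, 5.45, 5.60 and 6.09 in SD ovaries at 8 wk, against 5.91, 4.73, 5.0 and 5.08 in SD ovaries at 3 wk. LD ovaries had 6.78, 5.72, 5.13 and 5.16 at 8 wk, against 5.43, 5.03, 4.95 and 4.67 at 3 wk. The ages overlapped in both photoperiods. The slide 1 array was the brightest in 4 of 4 groups, and spots of the same array differed far less than arrays of a group did. Each array is 1 hamster on 1 slide, so the spread between arrays holds slide as well as hamster.

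The age change of Gsta4 was 0.78 in SD ovaries (SE 0.36, limma adjusted p = 0.231) and 0.68 in LD ovaries (SE 0.36, adjusted p = 0.465). With slide as a block both rises were called, at limma adjusted p of 0.0109 in SD and 0.0382 in LD. Without slide 1 the SD rise was 0.78 and called (limma adjusted p = 0.0202). The LD rise was then 0.45 and not called (limma adjusted p = 0.213). Within slides the SD change ran from 0.60 to 1.01 and the LD change from 0.19 to 1.35. The difference of the age changes was 0.10 (95% interval −0.98 to 1.18).

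Gstm1 encodes a mu-class transferase that conjugates a wide range of electrophiles. It was read by a pair of probes, and the brighter (A_51_P479311) stood for the gene. That probe had 1.06, 1.18, 1.03 and 1.14 in SD ovaries at 8 wk, against 0.09, 0.34, 1.03 and 0.89 in LD ovaries at 8 wk. At 3 wk it had 0.36, 0.32, 0.48 and 0.62 in SD ovaries, against 1.04, 0.17, 0.70 and 0.66 in LD ovaries. The SD ovaries at 8 wk were tightly grouped above the SD ovaries at 3 wk, and above LD at 8 wk only by the third decimal. The LD groups of both ages covered the same range.

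The brighter Gstm1 probe differed by 0.66 with age in SD ovaries (SE 0.21, limma adjusted p = 0.0571, and 0.0231 with slide as a block) and by −0.06 in LD ovaries (SE 0.21). Without slide 1 its SD difference was 0.64 and was called (limma adjusted p = 0.0412). The dimmer probe (A_52_P415215) rose by 1.02 in SD ovaries (SE 0.20, limma adjusted p = 0.00455 over 24617 probes) and differed by 0.26 in LD ovaries (SE 0.20, adjusted p = 0.686). Between photoperiods at 8 wk the brighter probe differed by 0.52 (SE 0.21, limma adjusted p = 0.502) and the dimmer by 0.71 (SE 0.20, adjusted p = 0.155, and 0.0530 with slide as a block). Neither passed the test at 8 wk. With the mean of both probes the gene rose with age in SD ovaries by 0.84 (limma adjusted p = 0.00626). The difference of the age changes was 0.72 (SE 0.29) for the brighter probe and 0.75 (SE 0.29) for the dimmer, and neither passed adjustment by limma.

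**Figure D3:**
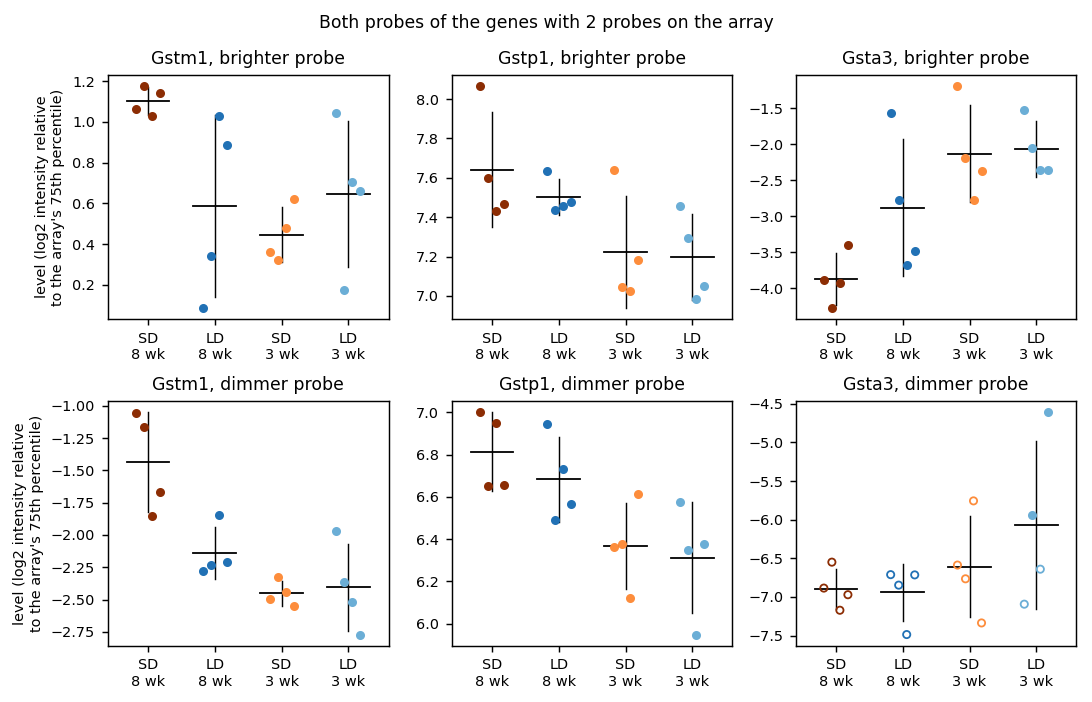
Levels of each probe of Gstm1, Gstp1 and Gsta3, as log2 intensity over the array's 75th percentile, in SD and LD ovaries at 8 wk and then at 3 wk. Points are single hamsters, lines are the mean and 1 standard deviation, hollow points were not well above background, and each panel has its own axis. Both Gstm1 probes have their highest mean in SD at 8 wk, both Gstp1 probes are higher at 8 wk, and the dimmer Gsta3 probe is almost entirely hollow.

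Gstp1 encodes the pi-class transferase. Its brighter probe (A_51_P374457) had 8.07, 7.60, 7.43 and 7.46 in SD ovaries at 8 wk, against 7.64, 7.05, 7.03 and 7.18 in SD ovaries at 3 wk. LD ovaries had 7.64, 7.43, 7.46 and 7.48 at 8 wk, against 7.46, 7.29, 6.99 and 7.05 at 3 wk. The ages overlapped through the slide 1 array at 3 wk, and slide 1 was the brightest in 4 of 4 groups. On each slide the 8-wk ovary was brighter than the 3-wk ovary of its photoperiod.

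The Gstp1 age change was 0.42 in SD ovaries (SE 0.18, limma adjusted p = 0.195) and 0.31 in LD ovaries (SE 0.18, adjusted p = 0.541). With slide as a block these became calls, at limma adjusted p of 0.00420 and 0.0382. Both were also called without slide 1. The dimmer probe (A_51_P374464) differed with age by 0.45 in SD ovaries and 0.37 in LD ovaries, with limma adjusted p of 0.0252 and 0.0864 with slide as a block. Between photoperiods the Gstp1 difference was 0.14 at 8 wk (95% interval −0.24 to 0.52) and 0.03 at 3 wk (95% interval −0.36 to 0.41). The transferase families hold closely related genes, and whether a probe also read a relative was not tested.

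Sod1 encodes the copper-zinc superoxide dismutase of the cytosol. Its levels ran from 7.26 to 7.72 in SD ovaries at 8 wk, against 7.07 to 7.28 in LD ovaries at 8 wk. At 3 wk they ran from 6.89 to 7.53 in SD ovaries, against 6.92 to 7.07 in LD ovaries. The age groups did not overlap in LD ovaries, by a margin in the third decimal, and overlapped in SD ovaries through the slide 1 array. The age change was 0.29 in SD ovaries (SE 0.16, limma adjusted p = 0.350, and 0.0582 with slide as a block) and 0.20 in LD ovaries (SE 0.16, adjusted p = 0.711). Without slide 1 the SD change was 0.32 and was called (limma adjusted p = 0.0285). The photoperiod difference was 0.20 at 8 wk (95% interval −0.13 to 0.54) and 0.11 at 3 wk (95% interval −0.22 to 0.45).

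Sod2 encodes the manganese superoxide dismutase of mitochondria. Its probe (A_51_P172573) was well above background on 2 of 4 arrays in SD ovaries at 8 wk, and on 3 of 4 in each of the other groups, and so did not pass the filter. Its levels ran from −6.58 to −3.65 in SD and from −6.55 to −4.07 in LD ovaries at 8 wk, and from −4.77 to −4.30 in SD and from −4.61 to −4.17 in LD ovaries at 3 wk. Both slide 1 arrays of 8 wk were far below the other arrays. With the filter removed, its differences in the 4 comparisons ran from −0.49 to 0.07 with an SE of 0.54, and none was called. Between photoperiods at 8 wk its 95% interval, −1.06 to 1.20, reached past a 2-fold difference either way.

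**Figure D4:**
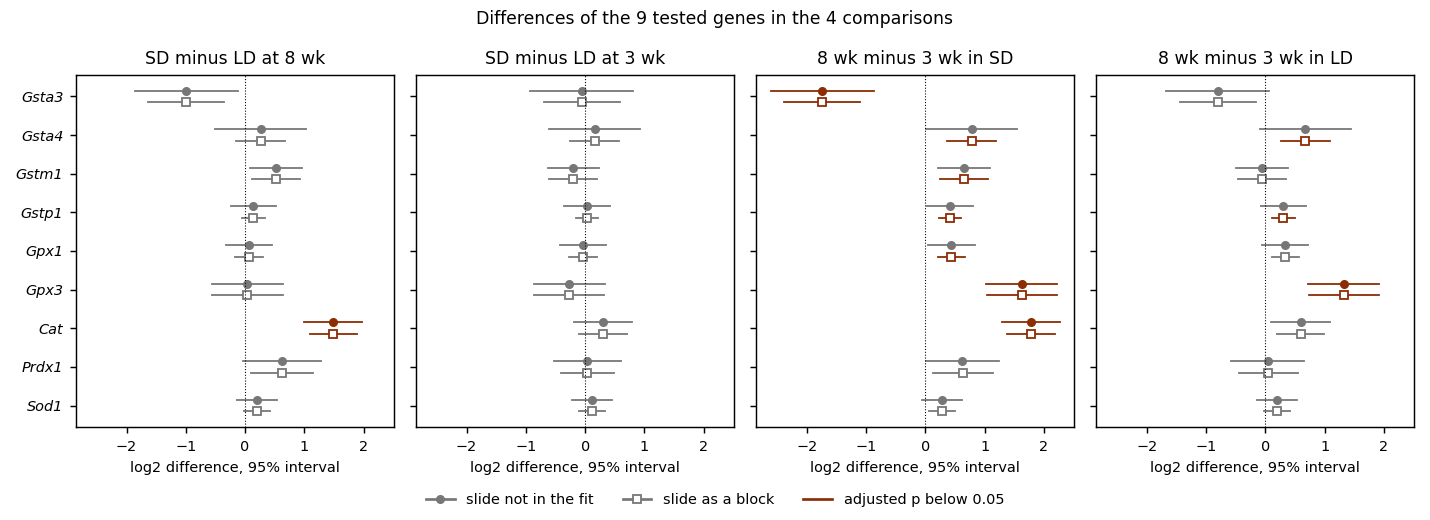
Log2 differences of the 9 tested genes with 95% intervals, SD minus LD at 8 wk and at 3 wk and 8 wk minus 3 wk in SD and in LD. Filled circles are the fit without slide and open squares the fit with slide as a block, and red marks a limma adjusted p under 0.05. Intervals narrow with the block in most genes, least in Gpx3 and Gstm1, and the calls added by the block are age changes.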

How the data were processed

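Ovarian RNA was amplified, Cy3-labelled and hybridised to 1-colour mouse arrays, per the labels' protocols. Spots were read by the authors with Agilent Feature Extraction 10.5.1.1, per the file headers, which subtracts background within an array. The deposited intensity of each spot is linear and not normalized between arrays. The deposited value table holds the same intensities rounded, apart from 4 values on 1 array that differed by more than 0.5%. It was an alternative. Flags for outlier spots, saturation (0 non-control spots) and signal well above background come from other columns of the deposited files.

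Samples were grouped by their descriptions, and replicate numbers are slide numbers, as the labels give none. The labels name a separate animal code for each sample. Intensities were taken as log2 of the authors' processed signal minus the array's 75th percentile. Control and outlier spots were dropped before averaging the spots of a probe. Probes had to be well above background on all 4 arrays of some group, with values on 12 or more of the 16 arrays and on 2 or more in each group and slide. The probe with the highest mean stood for its identifier.

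The test was limma 3.58.1 (lmFit, then eBayes with trend) in R 4.3.3 on all 16 arrays, two-sided, with Benjamini-Hochberg adjustment over 20143 identifiers (24617 for single probes) and a threshold of 0.05. A fit that also holds the slide as a fixed term is given beside it. The fit was tested on simulated data. The genes, lists and tests were chosen with earlier results of these data known. All 10 genes are named. Those called in any comparison, in the fit without or with slide as a block, are given on every array by their brightest probe. The planned normexp background correction failed on 5 arrays, where a few spots had a local background far above their signal. In its place, chosen after seeing the data, normexp was run on median signals (offset 50) with the local background held at its 99th percentile. No table of sequences, gene symbols or genome positions was used here. The number of arrays limits the precision.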

Additional observations from a re-analysis of the deposited data

Results flagged for a closer look

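Of 42 sets of 4 arrays (11 probes past the filter in 4 groups, less those with a missing array), 4 held a hamster set far apart from the other 3, where chance gives about 1 in 20. Cat in the SD hamster of slide 4 at 8 wk was at 3.51, against 4.32 to 4.44 in the other SD hamsters of that age. Without it the photoperiod difference of Cat at 8 wk was 1.71 (limma adjusted p = 0.000485). Gpx3 in the SD hamster of slide 2 at 3 wk was at 3.99, against 5.27 to 5.32 in the others. Without it the SD age change of Gpx3 was 1.30 (limma adjusted p = 0.00272). The dimmer Gstm1 probe in the LD hamster of slide 3 at 8 wk was at −1.84, against −2.28 to −2.21. Sod1 in the SD hamster of slide 1 at 8 wk was at 7.72, against 7.26 to 7.33.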

How the results depend on the processing

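In 31 alternative settings, no call changed sign, and differences that were not called changed sign in 9, 20, 0, 9 and 12 instances (photoperiod at 8 wk and 3 wk, age in SD and LD, and their difference). The count of the 9 genes called in the SD age change was 3 as reported, against 9.15% of all identifiers. It was 6 with quantile normalization (12.6% of identifiers), 8 with array weights (17.6%) and 7 with slide as a block (23.1%). It was 8 with slide as a random block (21.9%) and 8 without slide 1 (14.2%). Keeping outlier spots gave 5 (11.6%). The percentile over all spots, a setting chosen after seeing the data, also gave 5 (11.3%). Leaving out each array gave 3 to 4. In the LD age change the count was 1 as reported, against 2.98% of all identifiers. It was 3 with slide as a block (11.9%), 2 with slide as a random block (11.2%) and 3 without slide 1 (6.19%). On leaving out each array it was 0 to 1. At 8 wk, 1 as reported, the count between photoperiods was 0 when only the groups compared were fitted. At 3 wk and in the difference of the age changes it was 0 in each setting run. The causes of these shifts were not tested. Over all identifiers, slide as a block called 528, 0, 4655, 2394 and 35 in the same order, where the fit without it called 193, 0, 1844, 601 and 12. Leaving out each array gave 118 to 241, 0 to 1, 1139 to 2201, 232 to 682 and 6 to 49. Array weights called 349, 4, 3547, 1498 and 31, and slide as a random block called 671, 0, 4407, 2259 and 86. Without slide 1 there were 2865, 1246 and 4 in the SD and LD age changes and their difference. Quantile normalization gave 983 in the LD age change, keeping outlier spots 935, and fitting only the groups compared 220 there and 82 between photoperiods at 8 wk. Signal over background limits Sod2 and the dimmer Gsta3 probe, which did not pass the filter. The brighter Gsta3 probe passed it but is dim. The labels carry no replicate numbers, so arrays were paired by slide alone, in the fits with slide as a block and in the differences within slides.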
